A study of Mus musculus with 6 samples.

Results

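Auxin was applied for 48 h to mouse neural progenitor cells (NPCs) that carry a degron on SPEN, and the RNA was compared with that of the same cells left untreated. In cells that carry the degron, adding auxin, a plant hormone, sends the fused protein to the proteasome. The comparison rests on 4 of the 6 RNA-seq libraries of the series: clones 30 and 31, each untreated and after 48 h of auxin at 500 uM, chosen by their titles. The other 2 libraries, the same clones after 24 h, entered the fit only to estimate the spread. All cells were of strain BL/6J x CAST-EiJ and carried the SPEN degron (source name NPC_SPEN-AID). They were derived from embryonic stem cells, subcloned, and kept in N2B27 to which EGF and FGF had been added (10 ng/ml for either factor). Each clone gave 1 library per condition, so n = 2 per group means 2 subclones. Untreated cells received 0 h of auxin, and auxin-treated cells without the degron were not analysed here.

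NPCs divide in culture because EGF and FGF signal through the ERK kinases to the G1 cyclins, which release the E2F factors that switch on the genes of DNA replication. Notch signalling, SOX factors and BMP signalling set the balance between division, quiescence and the neuronal or glial fates of these cells. SPEN is a large RNA-binding protein that recruits the NCoR and HDAC3 corepressors. It acts with Xist RNA in silencing the X chromosome and with RBPJ in repressing Notch targets.

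Read pairs assigned to genes numbered 24603816 to 43008978 per library, and 16007 genes had enough counts to be tested. Levels are counts scaled by library size (CPM, the usual unit) after TMM scaling, which corrects for differences in library composition. The neural progenitor markers Sox2, Nes, Pax6, Msi1, Fabp7, Vim and Olig2 were all detected, with a summed level of the list of 4870 and 4125 CPM in untreated clones 30 and 31 and 5376 and 4873 CPM at 48 h, while Sox1 had 2 counts or fewer in every library. The pluripotency markers Pou5f1, Zfp42 and Dppa5a had 0 counts in all 6 libraries, and 4 of 5 microglia and blood markers had 3 counts or fewer in each. Mitochondrially encoded genes had 0 counts in every library and were not tested.

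With the clone as a block, 2790 of the 16007 genes (17.4%) changed at 48 h, 1336 higher (8.35%) and 1454 lower (9.08%), at a Benjamini-Hochberg adjusted p of 0.05 in edgeR's quasi-likelihood test. Every one of the 2790 moved the same way in both clones. The test itself favours this, since a gene whose clones move apart has a larger spread and a smaller fitted change. The median log2 change was 0.81 for genes that rose and -0.68 for genes that fell. In 2573 of them the 48 h libraries did not overlap the untreated libraries, against 51.4% of all genes tested. The change was larger in clone 31 for 2297 of the 2790, with a median size of 0.87 on the log2 scale there and 0.58 in clone 30. A stricter class, called and changed at least 2-fold in each clone, held 448 genes (2.8%), of which 297 rose (1.86%) and 151 fell (0.943%). In a simulated data set with known changes, the share of false calls in this test was above the nominal level. Most changes of 1.5-fold and some of 2-fold were missed, so single calls are uncertain. Far fewer genes were changed in the simulation than were called here, so its shares need not carry over. The calls also depend on the block and on the libraries used. On treatment group alone edgeR called 0 genes (3311 at an unadjusted p under 0.05) and DESeq2 called 1669; the blocked fit called 6 genes once untreated clone 31 was left out, 614 or 646 once clone 30 or 31 at 24 h was, and 6615 once clone 30 at 48 h was. A set of 878 of the 2790 genes (390 higher, 488 lower) is called the common set below. These genes were called by the blocked edgeR fit. DESeq2 also called them, in the same direction, with the block, without it, and with the block on the 4 libraries alone. The edgeR and limma voom fits without the block (0 calls) and edgeR with it on the 4 libraries (3 calls) did not enter the set.

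**Figure D1:**
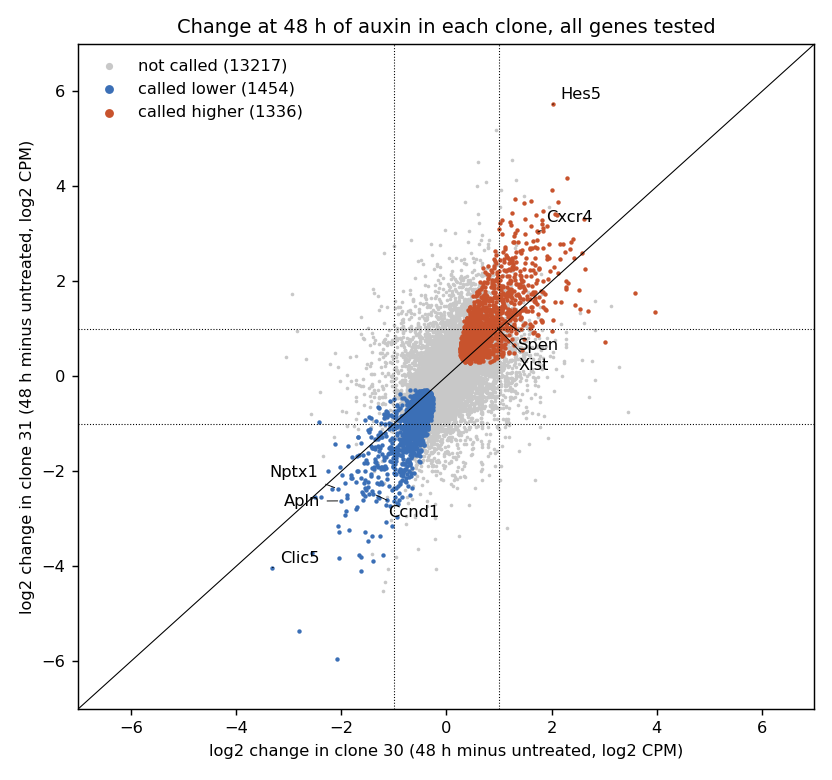
Log2 change at 48 h in clone 30 (x axis) and clone 31 (y axis) for the 16007 genes tested, 1 point per gene, each from 1 library against 1 (log2 CPM, prior count 2). Dotted lines mark 2-fold in each clone, the solid line equal change. Called genes (1336 higher, 1454 lower) lie in the quadrants where both clones move the same way, which the test favours. More of them lie on the clone 31 side of the line.

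Spen RNA and Xist both rose. Spen stood at 92.4 and 116 CPM in untreated clones 30 and 31 and at 200 and 259 CPM at 48 h, a log2 change of 1.11 and 1.16 in the 2 clones. The degron acts on the protein, so Spen RNA does not measure its depletion. Xist, which coats the inactive X chromosome, went from 705 and 862 CPM to 1334 and 1821 CPM, with changes of 0.92 and 1.08. The library kit named in the labels does not mark strand, so reads of Xist and its antisense partner Tsix may not be told apart. In both genes each 48 h library lay above each untreated one, as in 25.7% of all genes tested.

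The genes that fell most in both clones were led by Clic5, Nptx1 and Apln. Genes were ranked by the smaller of the 2 clones' changes, among called genes with a mean of at least 5 CPM. Clic5, of the chloride intracellular channel family, went from 24.9 and 55.0 CPM to 2.46 and 3.32 CPM (log2 -3.74 ± 0.32, SE; adjusted p = 0.0238). Nptx1, a pentraxin that neurons secrete at synapses, went from 333 and 665 CPM to 79.8 and 129 CPM, and Apln, the peptide hormone apelin, from 552 and 542 CPM to 138 and 88.0 CPM. Untreated and 48 h levels did not overlap in any of these 3 genes, as in 51.4% of all genes tested. The 24 h libraries, at 36.3 to 37.1 CPM for Clic5 and 484 to 669 CPM for Apln, lay apart from the 48 h libraries. Next came Rph3a, which encodes an effector of vesicle release (-2.02 ± 0.20), the filamin-binding gene Rflnb (-2.10 ± 0.14) and Sertm1 (-2.34 ± 0.25). Rph3a already stood at 5.18 and 2.35 CPM at 24 h, close to its 5.82 and 1.73 CPM at 48 h. Tmem132e, the chondroitin sulfate synthase gene Chsy3 and the muscarinic receptor gene Chrm3 fell by 1.90, 2.07 and 2.38. Adamts5, which encodes a protease that cuts matrix proteoglycans, went from 25.9 and 86.9 CPM to 8.86 and 21.7 CPM, and the integrin gene Itga9 from 30.8 and 42.3 CPM to 10.9 and 8.40 CPM. Ung, whose product removes uracil from DNA, fell by 1.75 ± 0.18. Stk32b, Prr5 (a component of the mTORC2 kinase complex) and Sipa1l2 completed the 15 largest shared falls with -1.97, -1.95 and -1.77.

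Among the largest shared rises, Cxcr4, a chemokine receptor of migrating precursors, went from 24.8 and 12.7 CPM to 83.2 and 105 CPM. Dhrs3, an enzyme gene of retinoid metabolism, rose by 2.17 ± 0.29 and Cyp4f15, a cytochrome P450 gene, by 2.79 ± 0.37. The inhibitor of differentiation Id4 went from 12.4 and 0.550 CPM to 50.4 and 9.15 CPM, so its 48 h level in clone 31 lay below its untreated level in clone 30. The Notch outputs Hes5 and Nrarp were also in this group, with changes of 2.02 and 5.73 (Hes5) and 1.62 and 2.71 (Nrarp) in clones 30 and 31. Sox2ot, a long noncoding RNA whose locus contains Sox2, went from 13.5 and 9.68 CPM to 48.1 and 33.5 CPM, and the uncharacterized gene 3110039I08Rik from 9.55 and 10.8 CPM to 29.6 and 40.2 CPM; counts of Sox2ot and Sox2 could in part be shared. Ypel4 (1.94 ± 0.16), the phosphatase subunit gene Ppp2r2b (2.45 ± 0.29), the kinase gene Dclk3 (2.17 ± 0.29), the lipid droplet gene Plin3 (2.01 ± 0.22), the reticulophagy receptor gene Retreg1 (2.60 ± 0.48) and Pyroxd2 (1.93 ± 0.20) were also among them. Of the 30 genes with the largest shared changes, 24 were in the common set; the others were Cyp4f15, Hes5, Id4, Pyroxd2, Rph3a and Tmem132e.

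**Figure D2:**
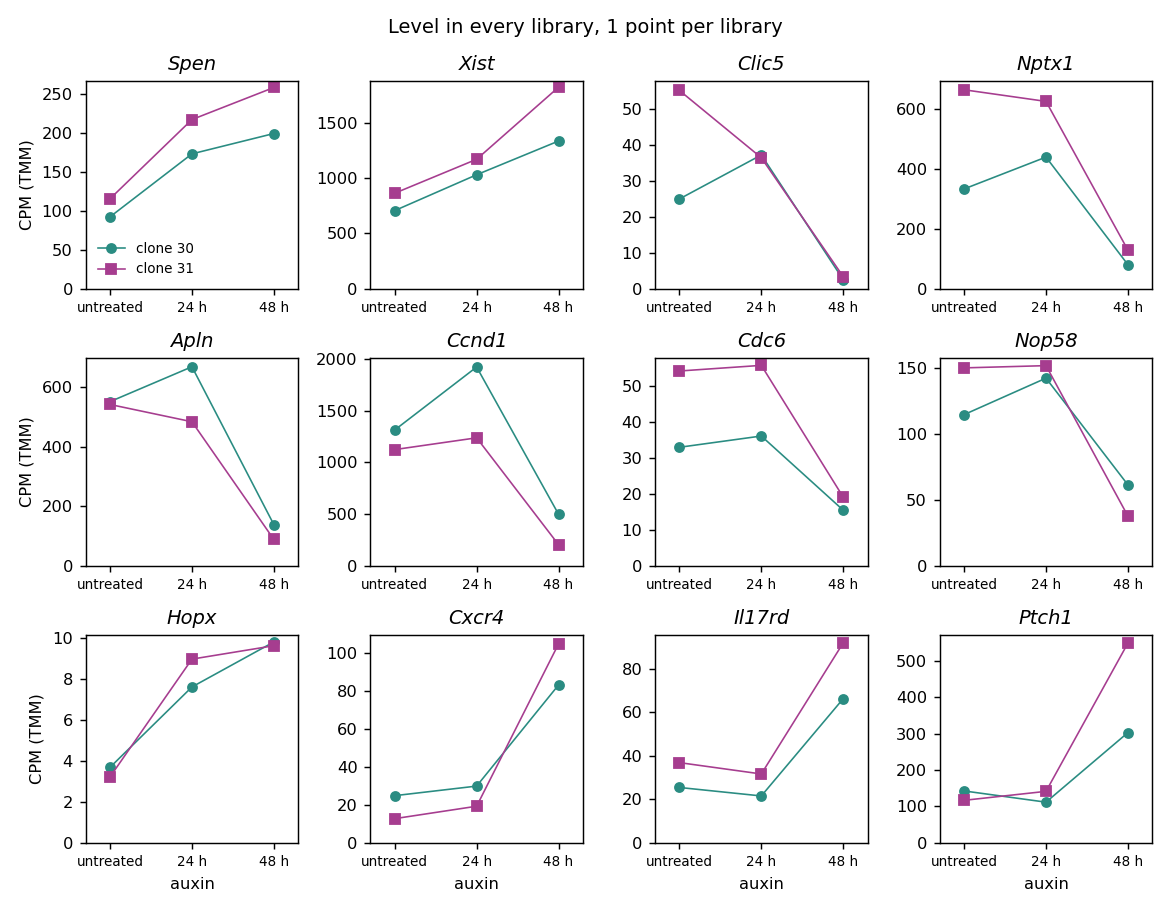
CPM in every library (y axis, linear from 0) for 12 genes, untreated and after 24 h and 48 h of auxin (x axis), with 1 line per clone. The 48 h points lie on 1 side of both untreated points in each panel, as for Apln (552 and 542 CPM untreated, 138 and 88.0 CPM at 48 h). The same holds for 51.4% of all genes tested.

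Counts of list members below are to be read beside the 8.35% of all genes tested that rose and the 9.08% that fell. The lists with the largest share of members that fell were origin licensing and the replication fork (88.5%), nucleotide synthesis (77.8%) and the G1 cyclins, kinases and E2F genes (71.4%). Of the 14 G1 cyclins, kinases and E2F genes, 10 fell and 0 rose, against 9.08% of all genes tested that fell, with a median log2 change of -0.71 (-0.52 in clone 30, -0.85 in clone 31) beside 0.02 for all genes tested. Ccnd1, the cyclin D gene that couples growth factors to the cycle, went from 1314 and 1124 CPM to 498 and 203 CPM (-1.93 ± 0.26). Ccnd2, its close relative, went from 1416 and 870 CPM to 814 and 244 CPM. Thus Ccnd1 and Ccnd2 were lower in each 48 h library than in either untreated one, as were 25.7% of all genes tested. The D cyclin gene Ccnd3 also fell, by 0.45 ± 0.09. Ccne1 and Ccne2, the E cyclins that act after them, fell by 1.07 ± 0.15 and 1.45 ± 0.11. The activator E2f1 fell by 0.93 ± 0.11 and E2f2 by 0.78 ± 0.13, while Cdk2 fell by 0.66 ± 0.10. The D cyclin partner Cdk4 was not called (-0.11 ± 0.10, adjusted p = 0.443).

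Of 26 genes of origin licensing and the replication fork 23 fell and 0 rose (median -0.68, with -0.66 and -0.74 in clones 30 and 31), and 12 of the 23 were in the common set. Cdt1, which loads the MCM helicase, went from 47.8 and 60.2 CPM to 22.7 and 29.4 CPM. Cdc45, which joins the helicase when it starts, went from 67.9 and 95.2 CPM to 35.2 and 50.5 CPM. In both, the 2 clones fell by nearly equal amounts (-1.07 and -1.04 for Cdt1, -0.95 and -0.91 for Cdc45). Cdc6 fell by 1.30 ± 0.13, Mcm3 by 1.06 ± 0.12, Mcm4 by 0.89 ± 0.11 and Mcm5 by 0.87 ± 0.11. The S-phase checkpoint and repair list had 12 of 20 members lower and 0 higher (median -0.68), among them the checkpoint kinase gene Chek1 (-0.81 ± 0.10), Tipin, which protects stalled forks (-0.85 ± 0.11), the nuclease gene Exo1 (-0.91 ± 0.12), Uhrf1, which brings DNA methylation to new strands (-0.81 ± 0.11), Rpa2 (-0.79 ± 0.11) and Msh6 (-0.74 ± 0.10).

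Promoters of licensing genes are shown because these genes moved together and their known regulator, E2F, binds a short motif. Only promoters with a match were eligible, taken by smallest p, so the presence of a match in those shown was fixed by this choice. Cdc45, with the smallest p of the list, is not among them. Windows run from 250 bases before to 50 after the transcription start, from RefSeq on GRCm38.p6, and capitals mark matches to TTTGGCGC, TTTCCCGC, TTTGCCGC or TTTCGCGC on either strand. Cdt1 lies on chromosome 8 (chr8:122567765-122568064, + strand), Cdc6 on chromosome 11 (chr11:98907901-98908200, + strand) and Mcm3 on chromosome 1 (chr1:20820263-20820562, - strand).
Cdt1: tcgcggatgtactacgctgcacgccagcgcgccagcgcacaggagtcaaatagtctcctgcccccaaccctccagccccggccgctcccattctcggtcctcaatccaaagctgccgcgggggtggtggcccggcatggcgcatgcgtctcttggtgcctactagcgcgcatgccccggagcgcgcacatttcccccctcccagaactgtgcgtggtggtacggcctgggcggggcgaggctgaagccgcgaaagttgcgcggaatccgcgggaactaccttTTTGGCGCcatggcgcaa
Cdc6: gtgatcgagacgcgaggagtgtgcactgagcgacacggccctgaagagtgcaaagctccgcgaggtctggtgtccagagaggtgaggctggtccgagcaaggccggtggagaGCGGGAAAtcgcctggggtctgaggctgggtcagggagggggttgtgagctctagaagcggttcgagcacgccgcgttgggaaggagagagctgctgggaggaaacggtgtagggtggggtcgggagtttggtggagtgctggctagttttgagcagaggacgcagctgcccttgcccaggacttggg
Mcm3: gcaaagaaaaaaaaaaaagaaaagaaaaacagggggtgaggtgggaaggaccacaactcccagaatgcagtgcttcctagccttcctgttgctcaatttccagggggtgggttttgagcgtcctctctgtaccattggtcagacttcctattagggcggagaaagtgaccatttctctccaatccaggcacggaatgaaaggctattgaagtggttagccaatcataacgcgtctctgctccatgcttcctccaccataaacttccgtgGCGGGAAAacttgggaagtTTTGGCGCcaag
Such a match stood in 10 of the 16 licensing and fork promoters that had a single window in the table (62.5%) and in 388 of 8931 such promoters of all genes tested (4.34%). It stood in 8.07% of the promoters of genes that fell and in 2.67% of those of genes that rose. Cdt1 holds 1 match, at base 283 of the window, Cdc6 1 at base 113, and Mcm3 2, the first at base 270. A match describes the letters and not binding.

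Of 20 mitotic genes 3 fell and 0 rose, with a median of -0.27 and 16 members below 0. Bub1, a spindle checkpoint kinase gene, went from 82.2 and 107 CPM to 59.2 and 81.9 CPM (-0.43 ± 0.08), so its 48 h level in clone 31 was about that of untreated clone 30. Cdk1 fell by 0.44 ± 0.11 and Kif20a by 0.42 ± 0.09, none of the 3 in the common set. Mki67, the usual marker of cycling cells, stood at 426 and 639 CPM untreated and 471 and 733 CPM at 48 h and was not called (0.17 ± 0.10, adjusted p = 0.281). As these are bulk libraries, fewer cells in a phase and less RNA per cell cannot be told apart.

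Among genes that brake the cycle 3 of 15 rose and 4 fell. Btg1, an antiproliferative gene, went from 86.5 and 69.5 CPM to 151 and 143 CPM (0.93 ± 0.10). The CDK inhibitor gene Cdkn1b (p27) rose by 0.41 ± 0.09 and Ccng2 by 0.82 ± 0.17. For Cdkn1b the 48 h level in clone 30 (137 CPM) lay below the untreated level in clone 31 (155 CPM). In contrast Cdkn1a (p21), also a p53 target, fell by 0.49 ± 0.10, from 658 and 418 CPM to 437 and 319 CPM, and the Rb relative Rbl1 by 0.52 ± 0.10. The p53 target list as a whole had 1 of 18 members higher, Sesn1 (0.76 ± 0.14), and 3 lower, Cdkn1a, Aen (-0.59 ± 0.10) and Plk2 (-1.48 ± 0.38), with a median of -0.16 that was -0.07 without the untreated library of clone 31.

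Ribosome assembly had the lowest fitted median of the lists, and the lowest in clone 31, but not in clone 30. Of 22 Myc and ribosome biogenesis genes 15 fell and 0 rose (median -1.23), and 14 of the 15 were in the common set. Its medians were -0.65 in clone 30 and -1.88 in clone 31, and the fitted median came to -0.72 once clone 31 at 48 h was left out. Nop58, a core protein of box C/D ribonucleoproteins, went from 115 and 150 CPM to 61.4 and 37.7 CPM (-1.43 ± 0.25). Dkc1, the pseudouridine synthase of box H/ACA particles, went from 90.4 and 129 CPM to 44.8 and 34.6 CPM. Neither gene had a 48 h library within the untreated range. Of all genes tested, 25.7% had both 48 h libraries below both untreated ones. The methyltransferase gene Fbl fell by 0.77 ± 0.11, nucleolin (Ncl) by 0.64 ± 0.11, Bop1 by 1.09 ± 0.21 and Wdr12 by 1.07 ± 0.20. Myc itself stood at 108 and 169 CPM untreated and 73.6 and 13.6 CPM at 48 h; the 2 clones lay so far apart (-0.55 and -3.64) that it was not called (adjusted p = 0.125). Of the 24 genes for cytosolic ribosomal proteins, the finished ribosome's own components, 0 were called, with fitted changes between -0.06 and 0.09.

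**Figure D3:**
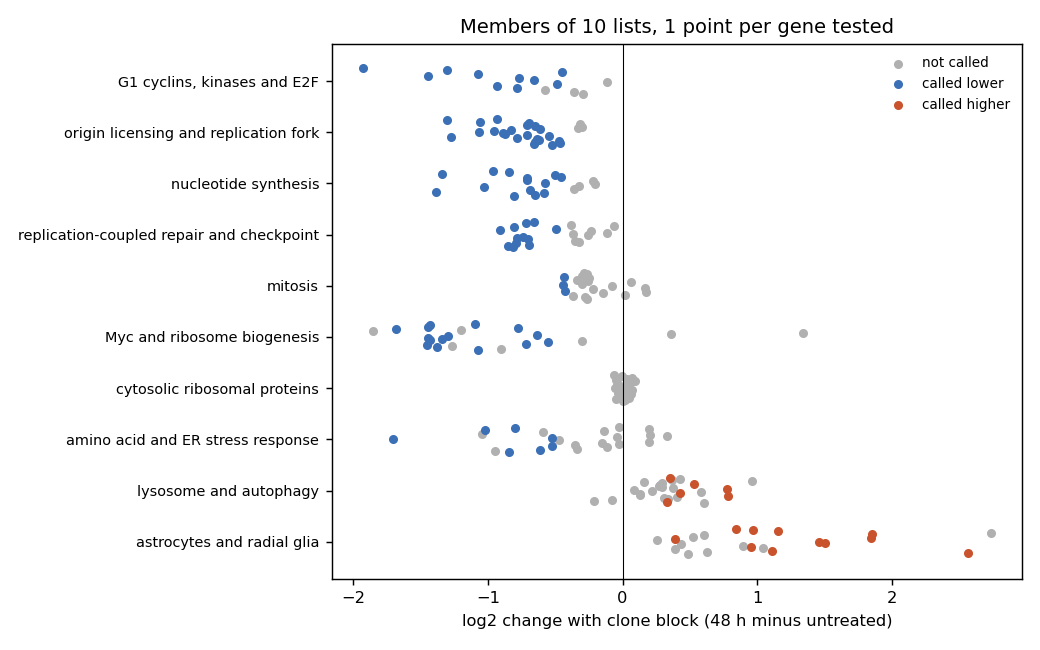
Log2 change at 48 h in the fit with the clone block (x axis) for the members tested of 10 lists (rows), 1 point per gene, coloured by call. All 26 licensing and fork genes lie below 0, the 24 ribosomal protein genes lie close to 0 and all 21 astrocyte and radial glia genes lie above 0.

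Of 18 nucleotide synthesis genes 14 fell and 0 rose (median -0.67). Rrm2, the regulatory subunit of ribonucleotide reductase, fell by 0.69 ± 0.09 with -0.68 and -0.69 in the clones. Ctps, which makes CTP, went from 91.6 and 115 CPM to 46.0 and 35.1 CPM. The purine gene Atic fell by 0.96 ± 0.16, the pyrimidine gene Umps by 0.80 ± 0.14, Dut by 0.71 ± 0.12 and thymidine kinase (Tk1) by 0.59 ± 0.11. In the amino acid and ER stress list 7 of 23 fell and 0 rose (median -0.35). Atf4, the transcription factor at its head, went from 131 and 211 CPM to 87.9 and 75.5 CPM, and its folate target Mthfd2 from 51.5 and 105 CPM to 20.9 and 24.0 CPM. Asns, for asparagine synthesis, fell by 0.80 ± 0.10, the chaperone gene Hspa5 by 0.53 ± 0.10, Xbp1 by 0.85 ± 0.14 and the transporter gene Slc7a5 by 0.61 ± 0.12.

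Of 18 EGF and FGF receptor and ligand genes 4 rose and 3 fell. Egfr, the EGF receptor, went from 374 and 345 CPM to 611 and 703 CPM, and Fgfr3 from 154 and 108 CPM to 322 and 465 CPM (1.56 ± 0.26). Fgfr2 rose by 1.58 ± 0.29. Hbegf, a membrane-bound ligand of EGFR, went from 39.7 and 33.2 CPM to 22.6 and 8.29 CPM, while Fgf1 fell by 1.05 ± 0.14 and Fgf13, an intracellular FGF relative on the X chromosome, by 1.0 ± 0.19. The ligand gene Tgfa rose by 0.86, so receptors and ligands were both among the rises.

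Of 15 ERK feedback and target genes 2 rose and 3 fell. Il17rd (Sef), a membrane antagonist of FGF signalling, went from 25.4 and 36.8 CPM to 66.2 and 91.9 CPM, with nearly equal changes of 1.38 and 1.32 in the clones. Phlda1 rose by 0.69 ± 0.17. The members that fell were Dusp4, Ier3 and Etv5, a transcription factor gene that ERK induces (-1.15 ± 0.25). Spry4 and Dusp6, the best known feedback inhibitors, had large but unequal changes, -1.21 and -4.51 for Spry4 and -0.96 and -3.80 for Dusp6 in clones 30 and 31, and were not called (adjusted p = 0.0628 and 0.0718). The list median was -0.15 in clone 30 and -1.16 in clone 31.

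Of 20 Notch genes 7 rose and 0 fell (median 0.48; clone 30 0.23, clone 31 0.83), 4 of the 7 in the common set. Leaving out clone 31 at 48 h gave a median of 0.25, and leaving out clone 30 at 48 h gave 0.74. Dtx4, which modulates the receptor, had levels of 249 and 154 CPM untreated and 434 and 324 CPM at 48 h. Hey1 and Hey2, repressors that Notch induces, rose by 1.53 ± 0.25 and 1.77 ± 0.38, the ligand gene Dll1 by 1.66 ± 0.32 and the coactivator gene Maml2 by 0.50 ± 0.09. Hey2 was low, at 1.93 and 0.850 CPM untreated and 3.98 and 4.90 CPM at 48 h. Hes1, also of this list, stood at 35.4 and 52.0 CPM untreated and 40.25 and 68.3 CPM at 48 h. Its groups overlapped and it was not called (adjusted p = 0.215). The RBPJ letters TGGGAA stood in 23.1% of the Notch promoters with a single window and in 23% of those of all genes tested, a share near the background. In the Hedgehog list, Ptch1, the receptor that is itself a target of the pathway, went from 142 and 117 CPM to 303 and 549 CPM (1.66 ± 0.26), whereas the coreceptor genes Cdon and Gas1 fell by 1.48 ± 0.15 and 0.51 ± 0.11. These 3 were the members called of 12.

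Wnt genes gave 5 rises and 1 fall of 18. The antagonist Dkk3 went from 2.13 and 9.33 CPM to 6.50 and 44.0 CPM, its untreated level in clone 31 exceeding its 48 h level in clone 30. The feedback genes Nkd1 and Axin2 rose by 1.23 ± 0.23 and 0.50 ± 0.10, Sfrp1 by 0.95 ± 0.17 and Tcf7l1 by 0.41 ± 0.09, and the transcription factor gene Tcf7 fell by 1.10 ± 0.23. Of 21 BMP genes 2 rose, Id4 and the receptor gene Bmpr1b (1.0 ± 0.14). Another 2 fell, the ligand gene Bmp7 (-0.84 ± 0.16) and Fst, an inhibitor of activin (-0.80 ± 0.18). Either share, 9.52%, was near the 8.35% higher and 9.08% lower of all genes tested. The YAP and TEAD list had 4 of 17 higher, with Fjx1 at 0.71 ± 0.11 and Axl at 0.69 ± 0.18, and 2 lower, Crim1 (-0.71 ± 0.12) and Amotl1 (-0.78 ± 0.16).

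Among 21 transcription factors and markers of the progenitor state 8 rose and 3 fell (median 0.35, and 0.55 without the 48 h library of clone 30). Sox21, a SOX factor that counteracts SOX2 in progenitors, went from 103 and 66.8 CPM to 204 and 214 CPM, and Sox4, of neuronal commitment, from 367 and 266 CPM to 671 and 1092 CPM. Sox2, Sox3 and Sox9 rose by 1.03, 0.98 and 1.16. These 5 SOX genes were above both untreated libraries in each 48 h library, as were 25.7% of all genes tested. The other SOX genes of the list, Sox8 and Sox11, overlapped the untreated libraries and were not called (adjusted p = 0.237 and 0.611). Nfib, Nfix and Pou3f2 rose by 0.59, 0.45 and 0.65, while the related Nfic fell by 0.45, Pou3f1 by 2.46 and the homeobox gene Lhx2 by 0.74. Nes, the filament of progenitors, stood at 1289 and 1275 CPM untreated and 1136 and 648 CPM at 48 h and was not called (adjusted p = 0.0962), nor was Pax6 (0.45 ± 0.12, adjusted p = 0.0539). Of 13 proneural and neuronal fate genes 3 rose and 0 fell, namely Sox4, Myt1 (1.27 ± 0.21) and Neurog2, whose counts were too low to give a size.

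Of 21 astrocyte and radial glia genes 11 rose and 0 fell (median 0.96; clone 30 0.44, clone 31 1.41), and all 21 lay above 0. Only 3 of the 11 were in the common set, and leaving out clone 31 at 48 h gave a median of 0.46. Hopx, which marks radial glia and quiescent stem cells, went from 3.69 and 3.23 CPM to 9.83 and 9.64 CPM (1.5 ± 0.18). The volume-regulated channel gene Ttyh1 went from 230 and 46.9 CPM to 642 and 588 CPM. Gfap rose but stayed at 2.72 and 0.942 CPM at 48 h, and Gjb6, of mature astrocytes, had 0 counts in all 6 libraries. In the oligodendrocyte lineage 4 of 13 rose, Pdgfra, Gpr17 and Cnp among them, and 0 fell, while Mog had at most 2 counts and Sox10 at most 5 in any library. The summed level of its 6 fixed markers was 31.1 and 82.4 CPM untreated and 97.9 and 161 CPM at 48 h.

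Of 13 neuron markers Elavl4 rose (0.51 ± 0.12) and Syt1 fell, 7.69% each way beside 8.35% and 9.08% of all genes tested. The summed level of the 7 fixed markers was 1133 and 852 CPM untreated and 1081 and 1003 CPM at 48 h. Map2, which progenitors can also express, made up nearly all of that sum (1083 and 821 CPM to 1043 and 964 CPM). Among the lower markers, Dcx, of young neurons, stood at 3.49 and 4.40 CPM untreated and 4.85 and 8.78 CPM at 48 h, and Syt1 went from 0.642 and 6.10 CPM to 0.259 and 0.678 CPM. Of 9 ependymal genes 1 rose, Rfx4 (0.64 ± 0.15), a factor that progenitors also express. Of 11 mesenchymal and vascular genes 2 rose, Col1a1 and Kdr, and Thy1 fell (-0.82 ± 0.12); the summed level of the 7 fixed markers was 4.22 and 38.9 CPM untreated and 5.17 and 34.8 CPM at 48 h. Nanog, the 1 pluripotency gene called, went from 1.24 and 1.40 CPM to 2.52 and 3.65 CPM. Of the microglia and blood list 2 genes were tested and 0 called. The part of such cells in the results was not tested.

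Of 26 synaptic adhesion and immunoglobulin family genes 4 rose and 5 fell, and 6 of these 9 were in the common set. Negr1 went from 23.1 and 23.8 CPM to 8.83 and 8.32 CPM (-1.45 ± 0.13), and the neurexin gene Nrxn2 from 141 and 164 CPM to 85.2 and 87.4 CPM. By contrast Nrcam, which anchors axonal membrane, went from 80.5 and 67.2 CPM to 144 and 210 CPM and Lsamp rose by 0.64 ± 0.12, while Lrrtm2, a neurexin ligand gene, rose by 2.41 ± 0.30 and Opcml fell by 0.61 ± 0.10. Among 31 channels and transmitter receptors 4 rose and 2 fell. Gabbr1, a subunit of the GABA-B receptor, went from 52.8 and 49.7 CPM to 113 and 101 CPM, and the calcium-activated potassium channel gene Kcnn2 rose by 1.65 ± 0.18. Kcnj10, the potassium channel of glia, and the chloride channel gene Clcn2 rose by 0.84 ± 0.19 and 0.47 ± 0.11. The voltage-gated potassium channel gene Kcnd3 fell by 1.06 ± 0.18 and Chrm3 with it.

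Of 32 ephrin, Eph, semaphorin and plexin genes 5 rose and 2 fell. The semaphorin receptor Plxnb1 went from 186 and 136 CPM to 326 and 300 CPM, Ephb1 and Ephb2 rose by 0.94 ± 0.12 and 0.63 ± 0.10, Plxna2 rose by 0.45 ± 0.10, and Sema3c and Ephb4 fell by 1.09 ± 0.19 and 0.41 ± 0.09. In the matrix list 6 of 28 rose and 1 fell. The basement membrane genes Nid1, Nid2, Lamb2 and Lama5 rose by 0.74, 0.69, 0.72 and 0.38 and the fibrillar collagen gene Col11a1 by 0.41. Tnc, for tenascin C of the progenitor niche, fell by 0.76 ± 0.19, from 1844 and 1988 CPM to 960 and 1310 CPM.

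Of 26 lysosome and autophagy genes 6 rose, 0 fell and 24 lay above 0, with a median of 0.33 (clone 30 0.19, clone 31 0.48) that was 0.17 without the 48 h library of clone 31. Of the 6, 2 were in the common set. Npc1, which exports cholesterol from lysosomes, went from 200 and 181 CPM to 298 and 361 CPM, and the glucosidase gene Gaa rose by 0.53 ± 0.12, followed by Map1lc3b (0.43), Ctsa (0.35) and the autophagy kinase gene Ulk1 (0.33). Of 23 cholesterol and fatty acid synthesis genes 2 fell, among them Idi1 (-0.39 ± 0.09), and 0 rose. The share that fell, 8.7%, was near the 9.08% of all genes tested. Interferon response genes were higher in 5 of 14, led by Parp14 (4.17 and 1.5 CPM to 11 and 5.73 CPM), with 0 lower and none of the 5 in the common set. The NRF2 list had 2 higher, Trim16 (0.62 ± 0.12) and Nqo1 (0.62 ± 0.14), and 3 lower, Gclm (-0.37 ± 0.09), Gsr (-0.54 ± 0.13) and Hmox1 (-0.52 ± 0.13), of 19.

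The glycolysis and hypoxia list had a median of -0.72 in clone 30 and 0.72 in clone 31, with 2 of 25 called, both lower. Ldha, for lactate production, went from 978 to 468 CPM in clone 30 and from 1082 to 1784 CPM in clone 31, and Pdk1, which holds pyruvate out of mitochondria, from 78.5 to 30.2 CPM and from 84.2 to 286 CPM. Ldha and Pdk1 were not called (adjusted p = 0.86 and 0.78), and neither was Pgk1 (-0.72 and 1.2) or Hk2 (-2.40 and -0.33). The members called, Pfkfb3 and the hormone gene Adm, fell by 0.70 ± 0.12 and 0.92 ± 0.20. Of 25 nuclear-encoded respiratory chain genes 0 were called, with medians of -0.14 and 0.13 in clones 30 and 31. The difference between the clones cannot be tested with 1 library per clone and condition.

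Of 20 corepressor and Xist partner genes Lbr, a nuclear envelope protein that binds Xist RNA, fell by 0.65 ± 0.09 and Ctbp2 by 0.39 ± 0.09, and Spen rose. Hdac3 stood at 125 and 129 CPM untreated and 131 and 136 CPM at 48 h and was not called (0.07 ± 0.08). Among 20 Polycomb and DNA methylation genes 3 rose and 5 fell. Tet2, a 5-methylcytosine oxidase, went from 26.2 and 29.6 CPM to 50.1 and 55.0 CPM and the PRC2 cofactor gene Jarid2 from 77.2 and 79.3 CPM to 130 and 189 CPM. Ezh1 rose by 0.87 ± 0.16, whereas Suz12, Cbx6 and Dnmt1 fell by 0.50, 0.59 and 0.57.

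SPEN and Xist act on the X chromosome. Of 554 X-linked genes tested 42 rose (7.58%) and 37 fell (6.68%), against 8.35% and 9.08% of all genes, and their median was 0.03 (clone 30 0.01, clone 31 0.07), with -0.02 and 0.10 when the 48 h library of clone 31 or of clone 30 was left out. Counts hold both parental alleles together. In the list of the X-inactivation centre and genes known to escape silencing 2 of 18 rose and 2 fell, 11.1% each way. Xist and the histone demethylase gene Kdm6a (0.39 ± 0.09) rose, and Utp14a (-0.57 ± 0.11) and Pbdc1 (-0.45 ± 0.09) fell. Among the X-linked genes with the smallest p were Apln, Gdpd2 (63.5 and 47.0 CPM to 136 and 133 CPM), the plexin gene Plxnb3 (20.5 and 37.9 CPM to 50.7 and 97.2 CPM) and the mitotic helicase gene Ercc6l (-0.91 ± 0.10).

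Calls were spread over the genome. The share of genes that rose ran from 5.98% on chromosome 13 to 12.8% on chromosome 18, and the share that fell from 6.68% on the X chromosome to 12.3% on chromosome 16. Genes of 500 kb and more fell in 14.7% of 170 cases and rose in 8.24%, and their median was -0.11 (clone 30 0.01, clone 31 -0.22), while genes of under 5 kb fell in 4.79% and rose in 4.76%. The share called also moved with level: under 1 CPM 3.04% rose and 1.52% fell, and at 100 CPM and more 9.6% rose and 13.1% fell.

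The common set joins fits of the same libraries, so it is not independent support. As DESeq2 without the block enters it, differences in level between the clones weigh against membership. The share of called members that were also in the common set differed from list to list. Over all genes called it was 878 of 2790, so shares such as 2 of 6 or 2 of 7 lie near that of all calls. It was 9 of 14 for nucleotide synthesis, 4 of 10 for the G1 cyclins, kinases and E2F genes, 6 of 12 for repair and checkpoint and 2 of 7 for the amino acid and ER stress response. Among signalling lists it was 4 of 7 for EGF and FGF receptors and ligands, 3 of 5 for ERK feedback, 2 of 6 for Wnt, 2 of 3 for Hedgehog, 1 of 4 for BMP and 2 of 6 for YAP and TEAD targets. It was 6 of 11 for progenitor transcription factors, 4 of 4 for the oligodendrocyte lineage, 5 of 6 for ion channels, 2 of 7 for matrix, 1 of 7 for the ephrin and semaphorin families and 3 of 8 for Polycomb and DNA methylation. Of the CDK inhibitor and Rb list 1 of 7 was in it, of the p53 targets 1 of 4, of the NRF2 targets 0 of 5 and of cholesterol and fatty acid synthesis 0 of 2.

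**Figure D4:**
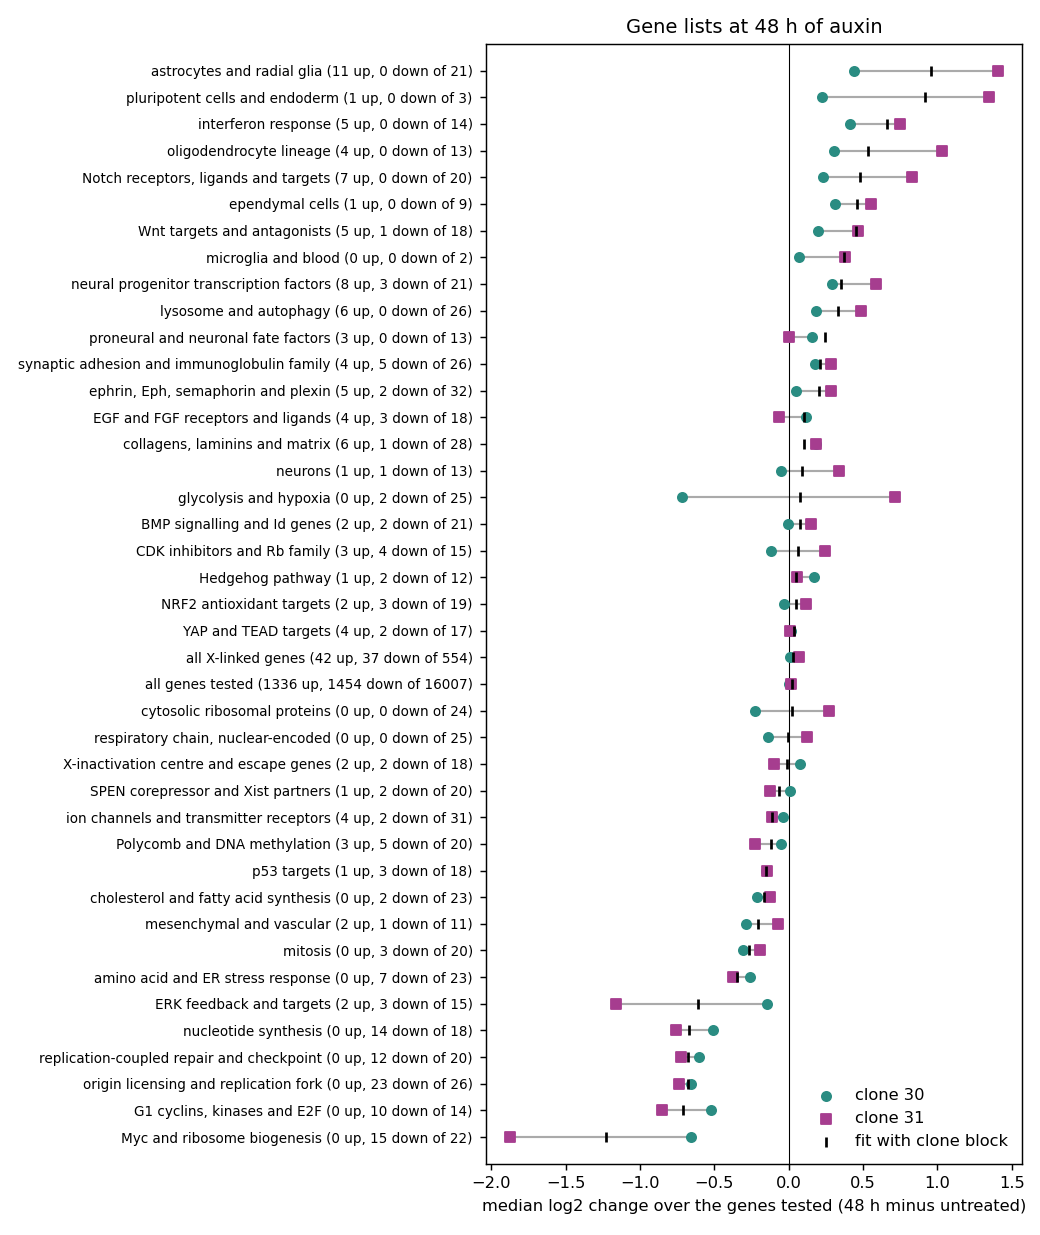
Median log2 change at 48 h (x axis) of each gene list, all X-linked genes and all genes tested (rows), in clone 30 (circle), clone 31 (square) and the fit with the clone block (bar); labels give members that rose and fell of those tested. The Myc and ribosome biogenesis list has the lowest median in the fit and in clone 31 (-1.88) but not in clone 30 (-0.65), the glycolysis list spans 0 (-0.72 and 0.72), and X-linked genes lie at 0.03.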

How the data were processed

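RNA was extracted with a column kit, and libraries were made with the TruSeq RNA kit v2 and sequenced as read pairs, per the labels' protocols. The authors deposited a raw count of read pairs for each gene, from featureCounts 1.6.1 with exons as features and the reverse strand setting. The gene models were those of Ensembl release 92 for mm10, per the file headers. The kit the labels name does not mark strand, and whether the reads were stranded was not tested. File paths in the headers show a STAR folder and alignments with duplicates removed. R 3.4.2 and DESeq2 appear in the submitters' processing notes. Exon length, deposited beside the counts, entered no test. Of 53801 genes 53620 matched a symbol.

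All 6 libraries entered one edgeR 4.0.16 model (R 4.3.3) of treatment group plus clone, with robust quasi-likelihood tests, TMM scaling and filterByExpr. The SE of a log2 change is its size over the root of its F statistic. Same-clone libraries deviated together from the group means (correlations 0.803, 0.58 and 0.707 over 16007 genes), and the titles name the clone, so it pairs them. The common biological coefficient of variation was 0.121 with the block and 0.271 without it. Changes within a clone are differences in log2 CPM (prior count 2) of 1 library against 1. The block takes out the difference in level between the 2 subclones. P-values therefore measure how far the changes of these 2 subclones differ over the untreated, 24 h and 48 h libraries, with 2 residual degrees of freedom.

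The comparison, its 39 gene lists and the rule for named genes were chosen with earlier results of these data known. The rule took Spen, Xist, the 15 largest rises and falls shared by both clones at a mean of at least 5 CPM, up to 6 members per list with called ones first by p, and the 5 X-linked genes with the smallest p. Some other members were named after their values were seen: Ccnd3, Hes1, Cdk4, Mki67, Myc, Nes, Pax6, Sox8, Sox11, Map2, Dcx, Spry4, Dusp6, Ldha, Pdk1, Pgk1, Hk2, Hdac3, Gjb6, Mog and Sox10, with the remaining called members of short lists. Lists are described by counts and medians with no list test. Alternatives were other scalings, filters and tools (DESeq2 1.42.0 and limma 3.58.1 voom), thinning to the lowest total, no block, the 4 libraries alone and leaving out each library; 3 combinations, DESeq2 and voom without the block and DESeq2 on the 4 libraries, were added after the data were seen. Tested on simulated data with known changes, the fit made a larger share of false calls than its nominal level. A floor of 3 counts was 0.0698 to 0.122 CPM, which covers counting error only. Some genes that this rule takes are not reported here.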

Additional observations from a re-analysis of the deposited data

Results flagged for a closer look

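In 4 gene lists the clones moved in opposite directions at 48 h, with a median of at least 0.1 in size in each. The glycolysis and hypoxia list had medians of -0.72 in clone 30 and 0.717 in clone 31, a difference of 1.437 on the log2 scale. The cytosolic ribosomal proteins had -0.226 and 0.273 (difference 0.499), CDK inhibitors and the Rb family -0.122 and 0.246 (0.368), and the nuclear-encoded respiratory chain -0.137 and 0.125 (0.262). The difference between the clones was not tested, since each clone has 1 library per condition.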

How the results depend on the processing

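None of the called genes among the 208 followed changed sign under any alternative run. Every called gene moved the same way in both clones, so this was favoured in advance and is no measure of stability. In edgeR 194 of the 208 lost their call without the block. On the 4 libraries with the block 190 of 207 did. DESeq2 size factors, total counts, upper-quartile scaling, either filter, thinning, and DESeq2 or limma voom with the block kept the counts of calls within 1.5 times. Without the replicate block edgeR called 0 genes (0 higher, 0 lower, 0 at least 2-fold in each clone), and so did limma voom without it (3345 genes at an unadjusted p under 0.05), on the 4 libraries alone 0 (2560 unadjusted), while DESeq2 without the block called 1669, 671 higher, with 223 at least 2-fold in each clone. With the block on the 4 libraries alone edgeR called 3 (1 higher, 2 lower, 3 at least 2-fold), and DESeq2 1295 (654 higher, 641 lower, 265 at least 2-fold). Leaving out 1 library gave 6 to 6615 calls, 2 to 3509 higher and 4 to 3106 lower; the lowest came without untreated clone 31 and the highest without 48 h clone 30. The 2-fold count was 255 to 258 without a 24 h library and has no value without an untreated or 48 h one; at 1.5-fold in each clone it was 1269. Upper-quartile scaling moved the split to 1524 higher and 1232 lower. The uncalled genes Ldha, Pdk1, Pgk1 and Sox11 changed sign. Ldha (-0.12 in the blocked fit) was 0.13 without the block, 0.14 without it on the 4 libraries and 0.12 in DESeq2 without it. Leaving out 1 library gave -0.98 to 0.62 for Ldha, -1.14 to 1.5 for Pdk1 and -0.59 to 1.05 for Pgk1, with values below 0 for Pdk1 and Pgk1 when an untreated or 48 h library of clone 31 was left out and above 0 for Ldha when one of clone 30 was. With 1 library left out Sox11 ranged from -0.030 to 0.18. The cause was not tested. Whether depth limits the calls among genes under 1 CPM was not tested.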
